A study of Mus musculus and Rattus norvegicus with 37 samples.

Results

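The 8 genes described here mark cholangiocytes, the epithelial cells that line the bile ducts, and the ductular reaction, in which duct-like cells multiply in injured liver. They are Krt7, Krt19, Krt8, Krt18, Epcam, Sox9, Spp1 and Cftr, and they were found by gene name in 4 tables of liver RNA-seq, where each name occurred once. The 8 genes are 8 of 47929 named entries used in each of both mouse tables and 8 of 28026 in each of both rat tables. The choice of the genes used no measured value, although earlier results of these data were known when it was made.

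Whole liver was measured in 21 mice and 16 rats. LNA29 is a pair of locked nucleic acid inhibitors against miR-29a and miR-29b/c, each given at 20 mg/kg in 1 subcutaneous injection, and saline was the control. Livers of fed mice were taken at day 7. Of the WT/Floxed mice 8 were given LNA29 and 5 saline. The study left out 1 further floxed mouse with saline as an outlier in a principal component analysis. Of the mice labelled L-Sirt1 KO, in which the gene of the deacetylase Sirt1 is deleted in the liver, 4 were given LNA29 and 4 saline. All mice were females on a C57BL/6J background, the WT mice 9 to 11 weeks old and the floxed and L-Sirt1 KO mice 15 to 20 weeks old, so that WT/Floxed pools ages and genotypes (4 WT and 4 floxed mice with LNA29, 3 WT and 2 floxed mice with saline). Male Zucker Fatty rats (ZFR), which carry a mutated leptin receptor and become obese, were compared with Zucker lean rats (ZLR) at 5.5 months on chow (n = 4 each). Further ZFR, 3 months old, received BT2, an inhibitor of the kinase of branched-chain ketoacid dehydrogenase, at 20 mg/kg per day or vehicle (DMSO) for 1 week by intraperitoneal injection (n = 4 each). The study asked how hepatic gene expression responds to loss of miR-29 with and without Sirt1, and how it differs in obese rats.

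Cholangiocytes are simple epithelial cells that take up the bile made by hepatocytes and change it by secreting bicarbonate and water. Their cytoskeleton is built from type I keratins (Krt18, Krt19) paired with type II keratins (Krt7, Krt8). Hepatocytes hold the pair Krt8 and Krt18 but little Krt7 or Krt19, which ducts hold and which the mesothelium on the liver's surface holds as well. Epcam is an adhesion molecule of duct and progenitor cells, Sox9 a transcription factor of duct identity, Spp1 the secreted phosphoprotein osteopontin, and Cftr the chloride channel behind ductal secretion. In whole liver, fewer cells of a type and less RNA per cell cannot be told apart.

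The mature miR-29 strands that LNA29 targets are shown because they define which messages could carry a site. All share the seed (bases 2 to 8, in capitals), and the sequences are from RefSeq with coordinates on GRCm38.p6: miR-29a-3p at chr6:31062673-31062694 and the copies of miR-29b-3p at chr6:31063025-31063047 (both minus strand) and chr1:195037091-195037113, next to miR-29c-3p at chr1:195037600-195037621 (both plus strand).
miR-29a-3p: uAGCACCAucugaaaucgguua
miR-29b-3p: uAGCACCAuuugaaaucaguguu
miR-29c-3p: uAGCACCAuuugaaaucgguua
The 7-base complement of the seed, TGGTGCT, was searched on the sense strand of the longest annotated 3′ UTR of each mouse gene. It was present in 1 of the 8 genes, Krt7, and in 13.12% of the 21004 genes with an annotated 3′ UTR. The Krt7 match lies at chr15:101429476-101429482 on the plus strand of GRCm38, at base 1811 of a 3′ UTR of 2648 bases, and it is shown with its surroundings because it is the only one, with the match in capitals.
Krt7 site: gagtcacccaggTGGTGCTagttttgaagg
The match is followed by an A, and 1 of the 2 coding transcripts of Krt7 holds it. A match of letters is a description and was not tested as a site.

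Depth differed widely between the species, and this precedes the results because several rat libraries stand apart. The mouse libraries held an estimated 42.6 to 78.0 M reads. The rat libraries held 0.188 to 58.5 M reads, a ratio of 310, with 12 of 16 under 5 M and 4 under 0.5 M. The 4 shallowest were ZLR 3, ZLR 4, ZFR vehicle 4 and ZFR BT2 4, and in the shallowest 1 read was worth 10.5 normalized counts. Among the WT/Floxed mice, saline 3 and saline 4 held the most RNA of pancreatic acinar genes (a sum of 631 and 1322 normalized counts over 8 genes, against 21.7 to 322 elsewhere), and LNA29 4 the most of macrophage genes (40601 over 8 genes, against 7343 to 23653). Sirt1 itself ranged from 9.06 to 10.3 per 1000000 normalized counts in the 8 livers labelled L-Sirt1 KO and from 8.00 to 11.7 in the 13 WT/Floxed livers, so that the deletion is not visible in the gene's total and the label is used as given.

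In the mouse genome (GRCm38, GENCODE M21) none of the 8 genes overlaps another protein-coding gene. The keratins Krt7 (chr15:101411043-101430313, plus strand), Krt8 (chr15:101996698-102004482, minus) and Krt18 (chr15:102028180-102032027, plus) lie on chromosome 15, the latter pair side by side, and Krt19 (chr11:100140810-100148665, minus) lies on chromosome 11, as does Sox9 (chr11:112782224-112787760, plus). Epcam is at chr17:87635979-87651129, Spp1 at chr5:104435118-104441050 and Cftr at chr6:18170687-18322768, all on the plus strand.

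In mouse liver the 8 genes spanned a wide range of levels. Per kilobase of the longest coding transcript (normalized counts per kb, GENCODE M21), Krt8 and Krt18 led in the saline-treated WT/Floxed livers with 6610 ± 244 and 6444 ± 1121 (SD, n = 5), and their ranges overlapped. Spp1 followed with 1947 ± 268, apart from both neighbours. Sox9 (83.2 ± 15.6), Epcam (72.6 ± 17.5) and Krt19 (69.98 ± 13.2) overlapped in their ranges. Krt7 was lower, with 15.2 ± 6.48, and Cftr was lowest, with 2.36 ± 0.981, each apart from its neighbour. In the saline-treated livers labelled L-Sirt1 KO, whose table was normalized separately, the order was the same except that Sox9 (63.6 ± 19.4, n = 4) stood below Epcam (136 ± 35.3) and Krt19 (128 ± 55.2), apart from Krt19. Thus the 2 keratins that hepatocytes share with ducts were far above the 2 keratins that hepatocytes hardly hold.

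The first comparison asked whether LNA29 changed the duct genes in WT/Floxed liver. None of them (0 of 8) passed, where 4.35% of the 15811 genes tested passed the study's criteria (p-value under 0.05, adjusted p-value under 0.2, mean above 50 and fold change above 1.2). With a mean of 15.9 normalized counts, Cftr could not pass them. The fitted log2 fold change was above 0 for 6 of the 8 genes, against 50.5% of all genes tested, and their median was 0.27, against 0.00 over all genes. None of the 8 had an unadjusted p-value under 0.05, against 13.3% of all genes, and saline and LNA29 livers overlapped for every one of them, whereas 1.51% of all genes had groups that did not overlap.

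Krt7, the type II keratin of ducts, had 39.2, 87.8, 94.1, 42.1 and 47.9 normalized counts in the saline livers 4, 5, 1, 2 and 3. In the LNA29 livers it ran from 27.7 through a median of 108 to 159. Of the 8 LNA29 livers 5 were above every saline liver, while LNA29 4 was below all of them. Its log2 fold change was 0.54 ± 0.38 (SE; limma, adjusted p = 0.599), with a 95% confidence interval from -0.27 to 1.34. Krt7 also varied with the summed mesothelial genes within these 13 livers (r = 0.74, described with the other cell types), and the part of those cells in its fold change was not tested. Krt19, its partner keratin, had 74.7, 118, 112, 119 and 129 normalized counts in the same saline livers and 95.1 to 182, with a median of 131, in the LNA29 livers. Its log2 fold change was 0.30 ± 0.17 (SE; limma, adjusted p = 0.508).

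Epcam had 118, 128, 205, 128 and 161 normalized counts in the saline livers and 123 to 249, with a median of 203, in the LNA29 livers. Saline 4 was below every LNA29 liver, and the other 4 saline livers were within the LNA29 range, saline 1 in its upper part. Epcam thus had a log2 fold change of 0.37 ± 0.19 (SE; limma, adjusted p = 0.428), and a two-sided exact permutation test over the 1287 splits of the livers gave p = 0.0932. Spp1, which cholangiocytes secrete and which also comes from macrophages, had 2310, 2772, 3129, 3117 and 3341 normalized counts with saline and 2712 to 5342 with LNA29, with a median of 3581. Its log2 fold change was 0.28 ± 0.15 (SE; limma, adjusted p = 0.464; exact permutation p = 0.121). Sox9 had 325, 262, 316, 394 and 423 normalized counts with saline and 317 to 504 with LNA29, with a log2 fold change of 0.26 ± 0.14 (SE; limma, adjusted p = 0.480; exact permutation p = 0.106). These 3 genes had similar positive estimates whose 95% confidence intervals included 0, from -0.03 to 0.76 for Epcam, from -0.04 to 0.61 for Spp1 and from -0.05 to 0.56 for Sox9. A p-value that misses the threshold does not show that they were unchanged. The libraries ran on 3 flow cells, and within them the log2 difference was 0.08, 0.25 and 0.75 for Epcam, -0.04, 0.30 and 0.50 for Spp1, 0.03, 0.13 and 0.43 for Sox9 and 0.53, 0.99 and 0.08 for Krt7.

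The keratins shared with hepatocytes had the narrowest intervals. Krt8 had 13382, 13067, 12619, 13359 and 12288 normalized counts in the saline livers and 8973 to 14261, with a median of 12631, in the LNA29 livers. LNA29 2 was the lowest for Krt8 and also for Krt18, and it was the highest of the WT/Floxed livers for Epcam, Spp1 and Cftr. For Krt8 the log2 fold change was -0.09 (95% confidence interval -0.29 to 0.11; limma, adjusted p = 0.755). That of Krt18 was -0.06 (95% confidence interval -0.28 to 0.16; adjusted p = 0.856). Cftr had 5.81 to 21.3 normalized counts with saline and 7.35 to 25.9 with LNA29, and its log2 fold change of 0.16 had an interval from -0.59 to 0.91.

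**Figure D1:**
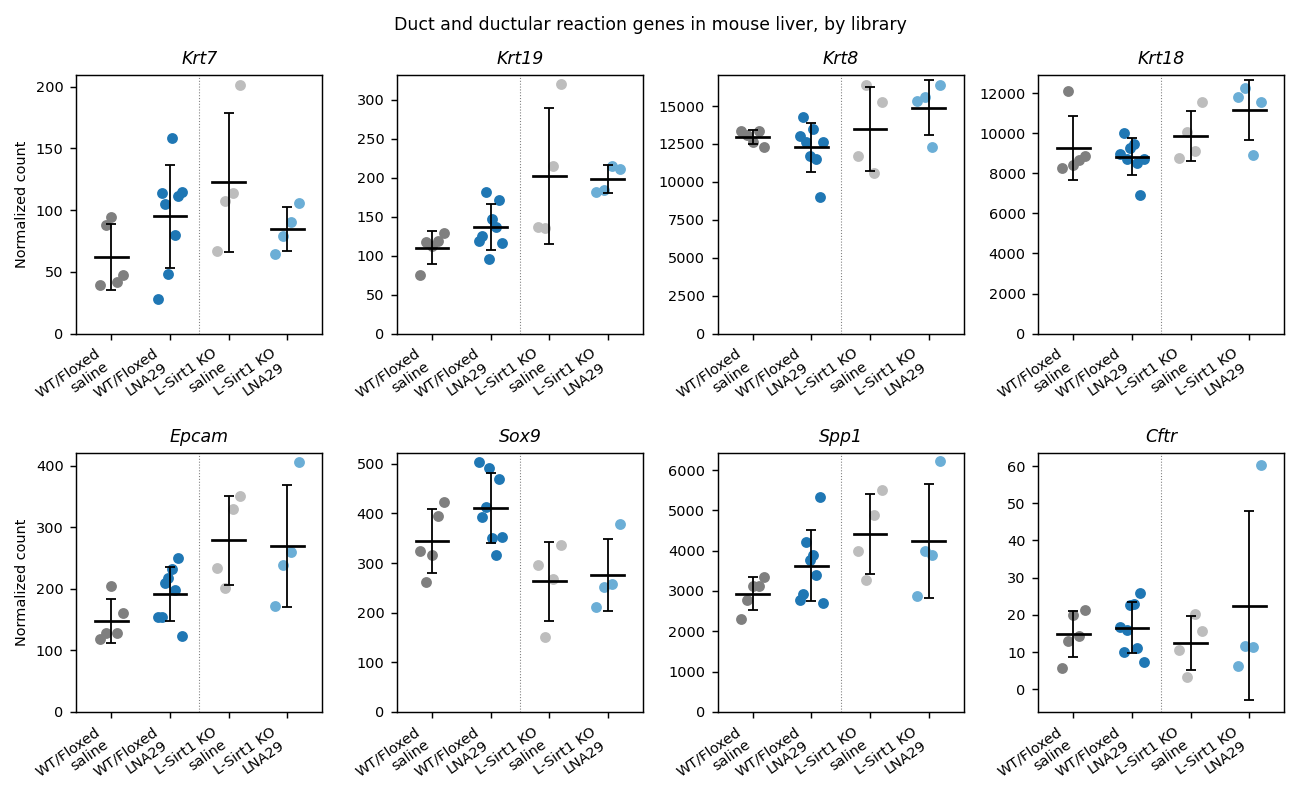
Normalized counts of the 8 genes in each of 21 mouse livers, 1 point per library, with the mean (thick line) and SD (bar) of each group; the dotted line separates the WT/Floxed table from the L-Sirt1 KO table, which were normalized separately. Saline and LNA29 points overlap in every panel, and 1 LNA29-treated liver labelled L-Sirt1 KO has a Cftr count of 60.4.

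The same question was asked for livers labelled L-Sirt1 KO. None of the 8 genes (0 of 8) passed the criteria, against 1.87% of the 15885 genes tested, 0 of 8 had an unadjusted p-value under 0.05, against 11.2%, and 0 of 8 had groups that did not overlap, against 6.95%. Cftr, with a mean of 17.5 normalized counts, could not pass the criteria here either. Fold changes were above 0 for 5 of the 8 genes, against 49.5% of all genes. Their median was 0.08 on the log2 scale, against 0.00 over all genes.

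Krt7 had 66.8, 108, 114 and 201 normalized counts in the saline livers 2, 3, 4 and 1 and 64.1, 79.0, 90.4 and 106 in the LNA29 livers 3, 4, 1 and 2. All 4 LNA29 livers were below the 3 highest saline livers, and the log2 fold change was -0.44 ± 0.31 (SE; limma, adjusted p = 0.643), with -0.06, -1.03 and -0.48 within the 3 flow cells, each of which held only 1 library of a group. Krt19 had 137, 136, 215 and 320 normalized counts with saline and 181, 184, 215 and 211 with LNA29, a difference of 0.06 on the log2 scale (adjusted p = 0.948). Saline 1 was the highest liver of this table for both Krt7 and Krt19. Epcam had 234, 201, 329 and 350 normalized counts with saline and 172, 239, 260 and 406 with LNA29, with a log2 fold change of -0.08 (95% confidence interval -0.68 to 0.52). Spp1 had 3986, 3274, 4880 and 5512 normalized counts with saline and 2872, 3981, 3893 and 6231 with LNA29, with a log2 fold change of -0.08 (95% confidence interval -0.60 to 0.43). The order of the 8 livers for Epcam was thus nearly their order for Spp1, whatever the treatment.

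Cftr in these livers was 10.7, 3.40, 20.1 and 15.6 normalized counts with saline and 6.39, 11.8, 11.4 and 60.4 with LNA29. LNA29 2, which held the 60.4, was also the highest liver of this table for Epcam, Sox9, Spp1 and Krt8. Cftr had a log2 fold change of 0.50 ± 0.70 (SE; limma, adjusted p = 0.827), and without that liver it was -0.14. Sox9 had 297, 150, 268 and 336 normalized counts with saline and 212, 252, 258 and 379 with LNA29, a difference of 0.09 on the log2 scale. Krt8 ranged from 10586 to 16360 normalized counts with saline and from 12278 to 16371 with LNA29, and Krt18 from 8777 to 11539 and from 8931 to 12248. Their log2 fold changes were 0.16 (95% confidence interval -0.18 to 0.50) and 0.17 (95% confidence interval -0.11 to 0.45).

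Whether the response to LNA29 differed between the genotypes was tested as an interaction over 15601 genes, of which 7 passed an adjusted p-value of 0.2 and 1426 had an unadjusted p-value under 0.05. These are 0.0449% and 9.14% of the genes tested, and none of the 8 genes was among either. The largest difference was that of Krt7, the log2 response of which was lower in mice labelled L-Sirt1 KO by 0.98 ± 0.56 (SE; limma interaction term, adjusted p = 0.619). For Epcam the difference was -0.45, for Spp1 -0.37, for Krt8 0.25 and for Krt18 0.23, with adjusted p-values of 0.713 to 0.742.

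**Figure D2:**
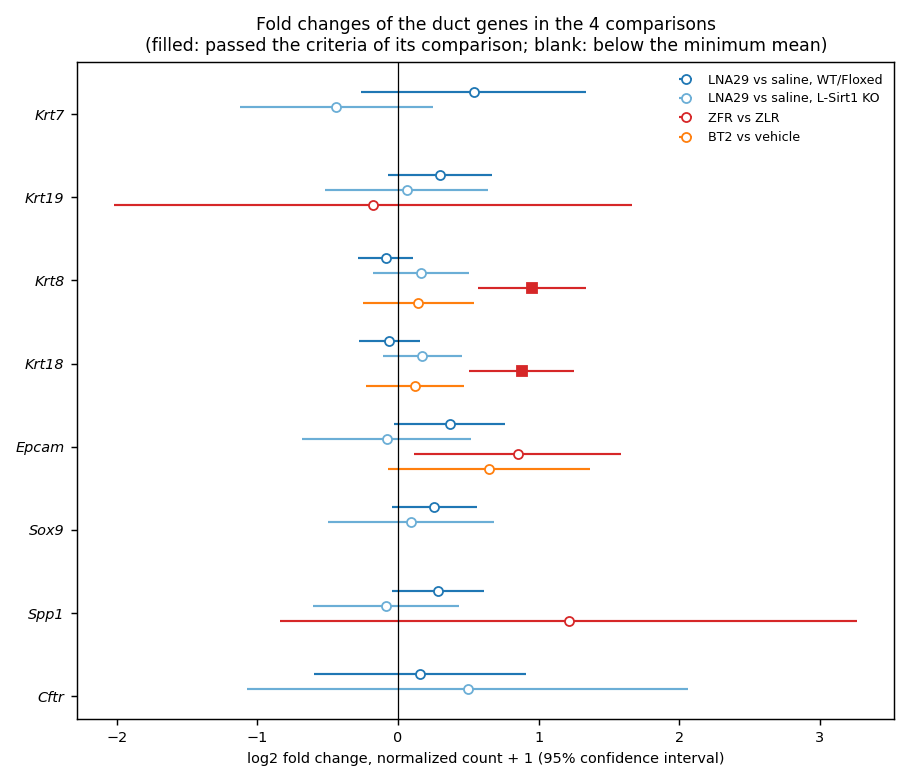
Fitted log2 fold change (horizontal axis, on the normalized count + 1 scale) and 95% confidence interval of each of the 8 genes in the 4 comparisons, shown by colour; filled squares passed the criteria of their comparison and open circles did not. Only Krt8 and Krt18 in ZFR against ZLR are filled, at 0.95 and 0.88.

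Other genes of the duct were read in the same fits. Of 20 further biliary genes (among them transporters, claudins, polycystic kidney disease genes and transcription factors), 17 were tested in WT/Floxed mice and 1 passed the criteria, where 4.35% of all genes passed. Fold changes were above 0 for 14 of the 17, against 50.5% of all genes, and the median log2 fold change was 0.11, against 0.00. The one that passed was Slc10a2, the apical sodium-dependent bile acid transporter, which cholangiocytes use to take up bile acids. It had 579, 982, 868, 558 and 1168 normalized counts in the saline livers 4, 5, 1, 2 and 3 and 234 to 652, with a median of 553, in the LNA29 livers. The groups overlapped, and its log2 fold change was -0.80 ± 0.27 (SE; limma, adjusted p = 0.177). Slc10a2 missed the criteria with the flow cell as a covariate and with saline 3 and 4, the acinar-high libraries, left out. In the other table it had 58.6 to 114 normalized counts with saline and 79.6 to 163 with LNA29, with a log2 fold change of 0.35 (limma, adjusted p = 0.681). There 0 of the 17 biliary genes tested passed, against 1.87% of all genes. Fold changes were above 0 for 14 of them as well, against 49.5% of all genes, with a median of 0.13.

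Ductular cells form under Notch signalling, in which Jag1 on one cell activates Notch2 on its neighbour. They also form with active Yap1, which Hippo signalling restrains and which drives genes such as Ctgf. Of 14 such genes 14 were tested in the WT/Floxed table and 13 in the L-Sirt1 KO table, and 0 passed in either, with medians of -0.04 and 0.12 on the log2 scale. Of 9 receptors of osteopontin (Cd44 and integrin chains) 9 were tested and 0 passed in either table, with medians of 0.09 and 0.11 on the log2 scale. Of 9 epidermal keratins and genes that anchor keratins (desmosome genes and plectin), 4 were tested and 0 passed in either.

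Markers of other liver cells were read in the same livers. In WT/Floxed mice 7 of 8 macrophage genes had log2 fold changes below 0 and 0 passed, and their summed counts were 7343 to 40601 with LNA29 and 13479 to 23653 with saline. In mice labelled L-Sirt1 KO 7 of 8 were below 0 and 2 passed, among them Vsig4, a complement receptor of Kupffer cells, at -0.54 (limma, adjusted p = 0.0891), with sums of 13057 to 16402 against 16244 to 19527. Mesothelial genes, which mark the liver's surface layer and share keratins with ducts, summed to 31.9 to 591 with LNA29 and 126 to 424 with saline in WT/Floxed mice, and Krt5 of that list stood at 0 to 2.75 normalized counts. Of 7 hepatocyte genes in WT/Floxed mice, Apoa1, the apolipoprotein of HDL, was 0.51 higher on the log2 scale (limma, adjusted p = 0.0312), and 1 other passed, lower. Stellate genes had 0 of 8 past the criteria in either table and acinar genes 0 of the 6 and 1 tested. The part of these cells in the values of the 8 genes was not tested.

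The mesothelial sum moved with Krt7 and Krt19 between livers, a relation examined after the data were seen. Its log2 value less the group mean was correlated with that of each of the 8 genes over the 21 mouse livers, with two-sided p-values from 100000 permutations within groups, adjusted over the 8 relations. Differences between WT and floxed mice, which also differ in age, stay in these deviations, and their part was not tested. Krt7 had r = 0.70 and rho = 0.74 (permutation p = 0.00453 and p = 0.00069, adjusted p = 0.0181 and 0.00552), and r was 0.66 without the 2 livers farthest from the median of the sum, 0.74 within WT/Floxed livers, 0.52 within those labelled L-Sirt1 KO and 0.66 with flow cell means removed. In WT/Floxed mice, LNA29 1 was highest in both, with 159 normalized counts of Krt7 and a mesothelial sum of 591, while LNA29 4, lowest in Krt7 with 27.7, had a sum of 146, and LNA29 7, lowest in the sum with 31.9, had 48.1 of Krt7. Krt19 had r = 0.61 and rho = 0.56 (permutation p = 0.00412 and p = 0.0138, adjusted p = 0.0181 and 0.0552), with r = 0.46 without the 2 farthest livers, 0.71 within WT/Floxed livers and 0.53 in the others. Epcam, Spp1, Cftr, Krt8 and Krt18 had r of -0.05 to 0.14 and Sox9 of -0.30 (adjusted permutation p = 0.472 or more for r).

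Single livers differed in these genes, and several of the genes did so together. Each gene's log2 value less its group mean was correlated over the 21 mouse livers, for all 28 pairs of the 8 genes. Two-sided p-values come from 100000 permutations within groups, adjusted over the 28 pairs. The WT/Floxed groups pool WT and floxed mice of different ages, so differences between those mice stay in the deviations, and the permutations mixed them. With LNA29, for example, Cftr had 16.7 to 25.9 normalized counts in WT and 7.35 to 15.9 in floxed livers, while with saline these ranges overlapped. The part of background and age in these correlations was not tested. Epcam and Spp1 had r = 0.91 and rho = 0.92 (permutation p = 2e-05 and p = 1e-05, adjusted p = 0.000187 and 0.00028), and r was 0.88 without the 2 livers farthest from the median of Epcam. Within the 13 WT/Floxed livers r was 0.83, within the 8 livers labelled L-Sirt1 KO it was 0.99, and with flow cell means removed too it was 0.89. Epcam and Cftr had r = 0.87 and rho = 0.83 (permutation p = 1e-05 and p = 8e-05, adjusted p = 0.00014 and 0.000747), and r was 0.83 without the 2 farthest livers. Spp1 and Cftr had r = 0.87 and rho = 0.85 (permutation p = 1e-05 and p = 7e-05, adjusted p = 0.00014 and 0.000747), with r = 0.84 without the 2 farthest livers. For these 3 pairs the smallest value that the permutations can give is 1e-05, and r was 0.79 to 0.83 within WT/Floxed livers and 0.94 to 0.99 within those labelled L-Sirt1 KO.

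Krt19 was less closely related to this set. Its r with Spp1 was 0.67 and its rho 0.78 (permutation p = 0.00067 and p = 0.00021, adjusted p = 0.00469 and 0.00147), and r was 0.62 without the 2 farthest livers, 0.70 within WT/Floxed livers and 0.64 within those labelled L-Sirt1 KO. Krt7 and Krt19 had r = 0.58 and rho = 0.53 (permutation p = 0.0146 and p = 0.0339, adjusted p = 0.0454 and 0.0949), with r = 0.65 without the 2 farthest livers, 0.48 within WT/Floxed livers and 0.86 in the others. Sox9 and Cftr had r = 0.73 and rho = 0.67 (permutation p = 0.00303 and p = 0.00427, adjusted p = 0.0141 and 0.0199), and r fell to 0.58 without the 2 farthest livers. Within WT/Floxed livers Sox9 had r = 0.47 with Cftr, 0.15 with Epcam and 0.30 with Spp1, against 0.88, 0.82 and 0.86 within the livers labelled L-Sirt1 KO.

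The pair of hepatocyte keratins moved together. Krt8 and Krt18 had r = 0.69 and rho = 0.71 (permutation p = 0.00144 for each, adjusted p = 0.00806 for each), with r = 0.60 without the 2 farthest livers and 0.63 and 0.80 within both tables. Against Epcam, Sox9, Spp1 and Cftr, Krt8 had r of -0.24 to -0.34 and Krt18 of -0.04 to -0.17, all with adjusted permutation p-values of 0.388 or more. Within the 13 WT/Floxed livers Krt8 had r = -0.69 with Spp1, -0.52 with Epcam and -0.44 with Cftr, against -0.01, -0.08 and -0.17 within the 8 livers labelled L-Sirt1 KO, and these values were not tested within a table. Krt7 had r = 0.41 with Epcam over all livers (adjusted permutation p = 0.162), and with Sox9 it had -0.64 within WT/Floxed livers and 0.39 in the others. The points of a pair share their livers, libraries and normalization.

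**Figure D3:**
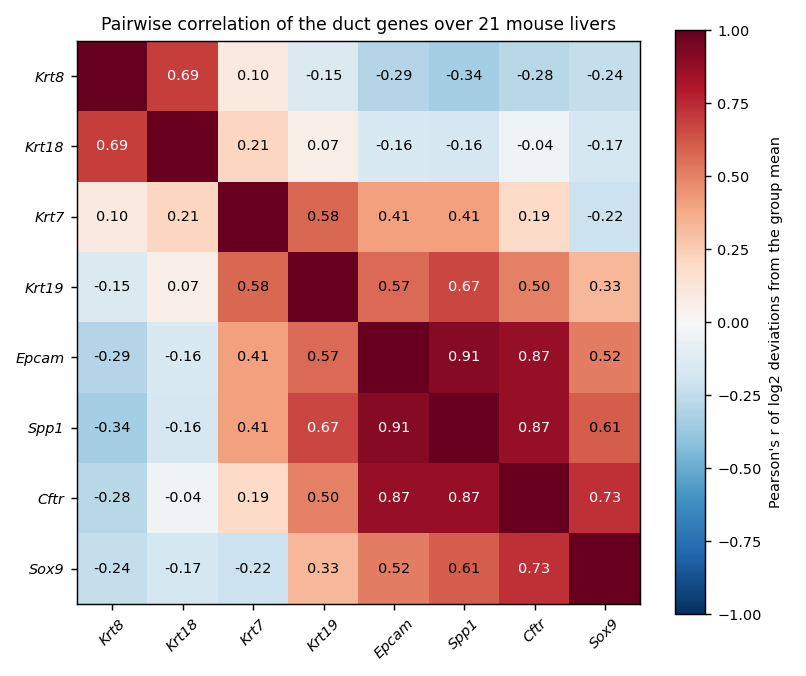
Pearson's r between the log2 deviations of each pair of the 8 genes from their group means, over 21 mouse livers; red is positive and blue negative. Epcam, Spp1 and Cftr form a block with r of 0.87 to 0.91, and Krt8 pairs with Krt18 at 0.69 while its r with the block is -0.28 to -0.34.

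**Figure D4:**
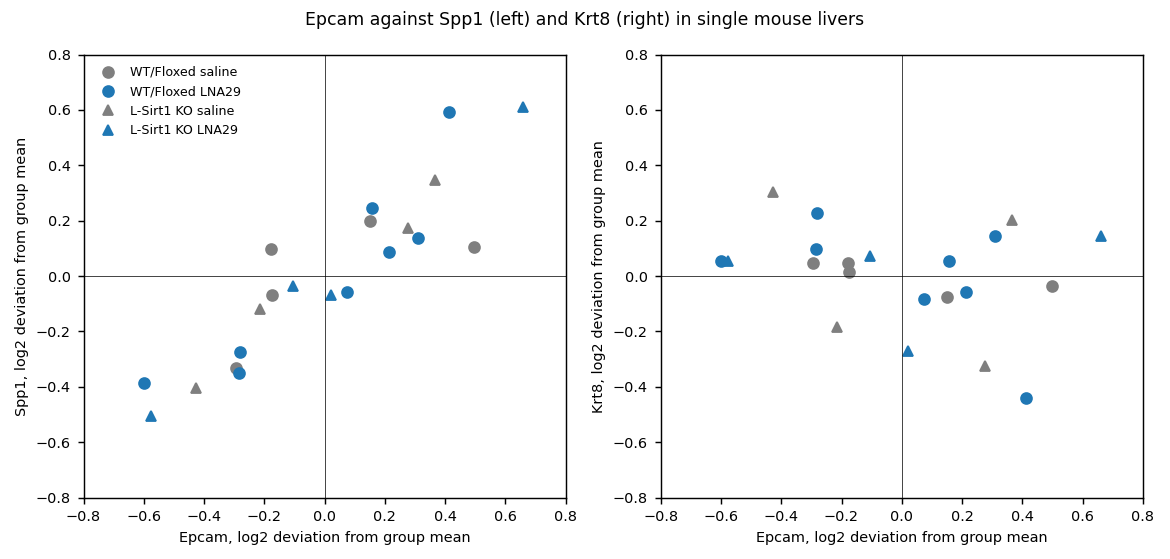
Log2 deviation of Spp1 (left) and Krt8 (right) from the group mean against that of Epcam in each of 21 mouse livers; colours mark the treatment and shapes the genotype. Spp1 rises with Epcam (r = 0.91), and Krt8 does not rise with it (r = -0.29).

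Among the 15601 genes that passed the minimum in the WT/Floxed and in the L-Sirt1 KO livers, the genes most like each of the 8 were named by the highest r over the 21 livers, as a description. For Epcam these were Foxj1, a transcription factor of motile cilia (r = 0.91), Spp1 (0.91) and Scara3, a scavenger receptor (0.89). For Spp1 they were Scara3 (0.91), Epcam (0.91) and Cldn8, a claudin of tight junctions (0.90). For Cftr they were Epcam (0.87), Sox4, a transcription factor related to Sox9 (0.87), and Spp1 (0.87). For Sox9 they were Osbpl3 (0.82), Blcap (0.79) and Mlph (0.77). Krt7 was most like Pdpn, podoplanin of mesothelial and lymphatic cells (0.83), Lyrm9 (0.82) and Fam110c (0.81). Krt19 was most like Gm8539 (0.76), Cbr3 (0.73) and Prr15l (0.72). Krt8 was most like Gm37736 (0.86), Gm10642 (0.86) and Rnd2 (0.85), and Krt18 like Mvk, mevalonate kinase (0.85), Chd1l (0.81) and Frk (0.79). Epcam and Spp1 were thus each among the 3 genes nearest to the other and to Cftr, while Cftr had rank 6 for Epcam and rank 5 for Spp1. These r are the same as those of the pairs above. Neither hepatocyte keratin was among the 3 genes named for Epcam, Spp1 or Cftr.

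In rats the 2 hepatocyte keratins were higher in ZFR than in ZLR. Here 5 of the 8 genes had a mean of at least 10 normalized counts and were tested, and 2 of these passed an adjusted p-value of 0.05, both higher. Of all 8633 genes tested 4.25% passed, and 1.8% passed and were higher. An unadjusted p-value under 0.05 was found for 3 of the 5, all higher, against 16.6% of all genes in either direction and 8.39% higher. Krt7, Sox9 and Cftr were below the minimum.

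Krt8 had 372, 319, 346 and 361 normalized counts in ZLR 1 to 4 and 753, 932, 548 and 542 in ZFR 1 to 4. Every ZFR was above every ZLR. Krt8 had a log2 fold change of 0.95 ± 0.17 (SE; limma, adjusted p = 0.0137), with a 95% confidence interval from 0.57 to 1.34, and a two-sided exact permutation test gave p = 0.0286, the smallest that 4 against 4 allows. Krt18 had 320, 440, 432 and 564 normalized counts in ZLR 1 to 4 and 888, 842, 673 and 787 in ZFR 1 to 4, again without overlap. Its log2 fold change was 0.88 ± 0.17 (SE; limma, adjusted p = 0.0166), with an interval from 0.51 to 1.25. The ratio of the group means was 1.99 for Krt8 and 1.82 for Krt18.

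The shallow ZLR libraries measured these keratins with few reads. Krt8 rested on about 33 reads in ZLR 3 (exact Poisson 95% interval 239 to 488 normalized counts) and on about 35 in ZLR 4 (255 to 508), against 262 reads or more in each ZFR. These intervals cover counting error only. On the flow cell of ZLR 1, ZLR 2, ZFR 1 and ZFR 2 the log2 difference was 1.28 for Krt8 and 1.202 for Krt18, and on the flow cell of the other 4 libraries it was 0.63 and 0.56, with ZFR above ZLR on both. Without ZLR 3 and 4, the libraries under 0.5 M reads, Krt8 was at 0.97 (adjusted p = 0.0375) and Krt18 at 1.08 (adjusted p = 0.00682). With the 3 libraries above 5 M reads alone, ZLR 1, ZLR 2 and ZFR 1, Krt8 was at 1.13 (adjusted p = 0.161) and Krt18 at 1.24 (adjusted p = 0.211), a fit that takes the lone ZFR to vary like the ZLR. Krt18 missed the threshold when ZFR 1, 2 or 4 was left out, with adjusted p-values of 0.0541 to 0.0597 and a log2 fold change of 0.83 to 0.88.

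Epcam had 20.3, 25.9, 31.6 and 10.4 normalized counts in ZLR 1 to 4 and 34.3, 37.7, 43.9 and 35.8 in ZFR 1 to 4. The groups did not overlap, as in 14.5% of all genes tested (7.8% with ZFR higher), and Krt8, Krt18 and Epcam were 3 of the 5 genes tested here. Epcam had a log2 fold change of 0.85 ± 0.33 (SE; limma, adjusted p = 0.223; exact permutation p = 0.0286) and did not pass. The ZLR values of 31.6 and 10.4 stood for 3 reads and 1 read, with intervals from 6.52 to 92.4 and from 0.264 to 58.2 normalized counts. Within both flow cells the log2 difference of Epcam was 0.63 and 1.07. In the deep libraries Epcam was at 20.3 and 25.9 in ZLR 1 and 2, from 529 and 600 reads, and at 34.3 in ZFR 1, from 1065 reads.

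Spp1 depended most on depth. It had 0.865, 1.22, 21.2 and 10.5 normalized counts in ZLR 1 to 4 and 6.66, 20.1, 14.7 and 10.96 in ZFR 1 to 4. The groups overlapped through ZLR 3 and ZLR 4, the values of which stood for about 2 reads and 1 read, while ZLR 1 and 2 rested on about 23 and 28 reads and ZFR 1 on 207. The log2 fold change was 1.21 ± 0.92 (SE; limma, adjusted p = 0.534). With sample quality weights it was 2.14 (adjusted p = 0.00988) and with precision weights from the estimated reads 2.25 (adjusted p = 0.0213). Without ZLR 3, without ZFR 2, without ZLR 3 and 4 together and in the libraries above 5 M reads alone, the mean of Spp1 was under the minimum. It was not tested in those settings. On the flow cell of the deep ZLR libraries Spp1 was 2.65 higher in ZFR on the log2 scale, and on the other it was -0.22.

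Krt19 had 3.22, 2.94, 21.1 and 20.9 normalized counts in ZLR 1 to 4 and 4.54, 4.71, 8.36 and 15.6 in ZFR 1 to 4. Its 2 highest values were those of ZLR 3 and 4 and stood for 2 reads each, and the log2 fold change of -0.18 had an interval from -2.02 to 1.66. Cftr, not tested, was at 1.19, 1.21, 0 and 0 normalized counts in ZLR and 2.29, 2.35, 2.09 and 1.56 in ZFR, from 71 reads in ZFR 1 and 1 or 2 reads in each of the other ZFR. Krt7 was at 0.766, 0.432, 0 and 0 in ZLR and 0.257, 0, 0 and 1.56 in ZFR. A count of 0 in ZLR 3 allows up to 31.6 normalized counts (3 reads), so that Krt7, Sox9 and Cftr were not measurable in that library.

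**Figure D5:**
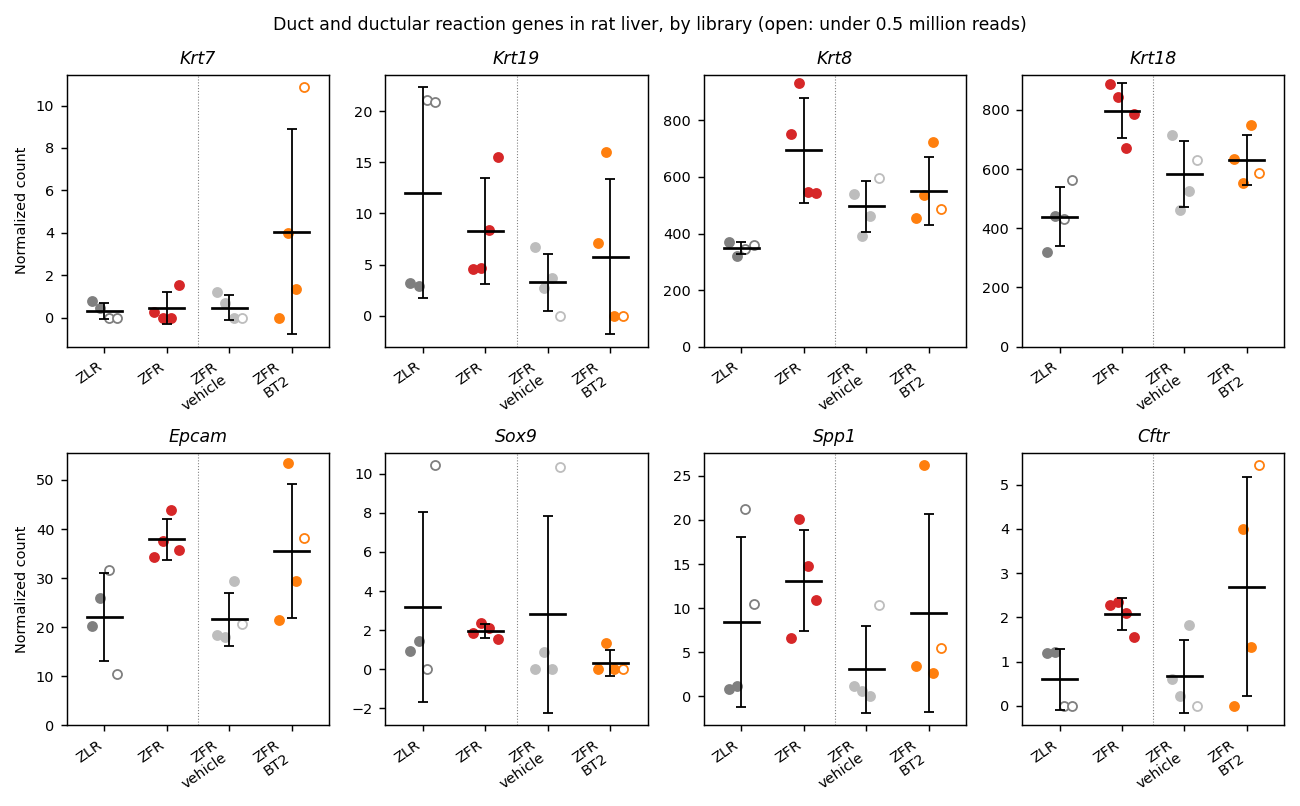
Normalized counts of the 8 genes in each of 16 rat livers, 1 point per library, with the mean (thick line) and SD (bar) of each group; open points are libraries under 0.5 M reads, and the dotted line separates 2 tables that were normalized separately. ZFR points lie above ZLR points for Krt8, Krt18 and Epcam, and the high ZLR points of Krt19 and Spp1 are open.

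The further lists were read in the same rats. Of the 9 keratin-associated genes 3 were tested and 0 passed, with a median log2 fold change of 0.04, against 0.07 over all genes. Of 9 osteopontin receptors 6 were tested, all 6 with a fold change above 0 (56% of all genes), and 1 passed. This was Itgb1, the integrin beta chain shared by many of them, with 180, 188, 200 and 219 normalized counts in ZLR and 262, 345, 278 and 291 in ZFR (log2 fold change 0.57 ± 0.12, SE; limma, adjusted p = 0.0302). It missed the threshold when ZLR 1, ZLR 2 or any ZFR was left out and without libraries under 5 M reads. Of 14 Notch and Hippo genes 7 were tested, 3 with a fold change above 0 and 4 below, with a median of -0.03 on the log2 scale. The 1 that passed was Ctgf, a secreted matricellular protein and Yap1 target. Ctgf had 6.70, 7.93, 10.6 and 10.5 normalized counts in ZLR and 40.8, 89.8, 35.6 and 53.0 in ZFR, all above, and its log2 fold change was 2.42 ± 0.34 (SE; limma, adjusted p = 0.00392). The Ctgf values of ZLR 3 and ZLR 4 stood for about 1 read each. Of the other biliary genes 5 were tested and 0 passed, with a median of -0.30.

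Markers of other liver cells were read in these rats too, and the summed ranges of ZFR and ZLR overlapped for stellate, hepatocyte and macrophage genes. Acta2, the smooth muscle actin of vessel walls and activated stellate cells, was 2.24 higher in ZFR on the log2 scale (limma, adjusted p = 0.00768). It had 39.7 to 58.8 normalized counts against 6.17 to 21.1, and its values in ZLR 3 and ZLR 4 stood for 2 reads and 1 read. Of the 6 stellate genes tested, 3 had fold changes above 0 and 3 below, with a median of 0.18 on the log2 scale, and 1 passed the threshold. The 8 stellate genes together summed to 277 to 400 in ZFR and 226 to 326 in ZLR. Of 7 hepatocyte genes 6 had fold changes below 0 and 2 passed, among them Cps1, the first enzyme of the urea cycle, which fell by 0.58 on the log2 scale (limma, adjusted p = 0.0483), and the 7 genes summed to 186612 to 282432 in ZFR and 234183 to 299104 in ZLR. Macrophage genes summed to 508 to 846 in ZFR and 459 to 664 in ZLR, with 0 of 7 past the threshold. Acinar genes summed to 0 to 11.8 normalized counts and mesothelial genes to 2.12 to 31.3. Their part in the values of Krt8 and Krt18 was not tested.

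The last comparison asked what BT2 changed in ZFR. Of the 8 genes 3 were tested and 0 passed an adjusted p-value of 0.05 (limma), as did 0 of 8405 genes, a share of 0%. At an unadjusted p-value under 0.05 there were 332 genes (3.95%), none of them among the 3, and other settings passed 0 to 2 genes in all. The groups overlapped for each of the 3, whereas they did not for 2.96% of all genes.

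Krt8 had 541, 390, 461 and 596 normalized counts in ZFR vehicle 1 to 4 and 455, 535, 725 and 488 in ZFR BT2 1 to 4. The groups overlapped, with a log2 fold change of 0.14 (95% confidence interval -0.25 to 0.54). Krt18 had 714, 463, 525 and 630 with vehicle and 633, 554, 747 and 587 with BT2, and its log2 fold change was 0.12 (95% confidence interval -0.23 to 0.47). Epcam had 18.3, 17.9, 29.3 and 20.7 normalized counts with vehicle and 21.4, 53.4, 29.5 and 38.1 with BT2. Only ZFR vehicle 3 reached into the BT2 range, and the log2 fold change was 0.65 ± 0.33 (SE; limma, adjusted p = 0.898; exact permutation p = 0.0571), with 0.87 and 0.43 within both flow cells.

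Spp1 was below the minimum here, with 1.23, 0.676, 0 and 10.4 normalized counts with vehicle and 3.49, 26.2, 2.70 and 5.48 with BT2. The 10.4 of ZFR vehicle 4 stood for 1 read and the 26.2 of ZFR BT2 2 for about 20. Krt19 ranged from 0 to 6.70 with vehicle and from 0 to 16.0 with BT2, Krt7 from 0 to 1.22 and from 0 to 10.9, Sox9 from 0 to 10.3 and from 0 to 1.33, and Cftr from 0 to 1.83 and from 0 to 5.44. None of these 5 genes was tested. In the libraries under 0.5 M reads, ZFR vehicle 4 and ZFR BT2 4, none of the 5 had more than 2 reads and Krt19 had 0, and the 16.0 of Krt19 came from 12 reads in ZFR BT2 2. Of the further lists, 5 biliary, 6 Notch and Hippo, 5 osteopontin receptor and 3 keratin-associated genes were tested, and 0 passed.

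Krt8 had a median of 217 per 1000000 normalized counts over the 21 mouse livers and 256 over the 16 rat livers, whereas Spp1 had 57.2 and 3.15, Sox9 5.77 and 0.565, and Krt7 1.54 and 0.181. Epcam was the reverse, with 3.36 in mouse and 15.05 in rat. These shares are not corrected for length, the gene models of both species differ, and no test was made. Most rat libraries were far shallower than the mouse libraries, and Krt7 and Sox9 had no reads in several of them, so that their rat medians lie near the floor. Species also goes with sex and obesity here, since the mice were females and the ZFR obese males.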

How the data were processed

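Liver poly(A)+ RNA-seq was deposited for 21 mice and 16 rats as 4 tables of gene-level signal: per the labels and the study's methods, the authors aligned single-end reads with STAR to mm10 or rn6, estimated gene counts with Salmon, and divided them by DESeq2 normalization factors within each table. Strand setting and annotation are not given in the sources used here. Whole reads were recoverable for 69.3 to 90.3% of low values (tolerance 0.01), so no count model was used, although the study's own test was one on counts. All columns were matched to a sample (0 unmatched). Rows without a gene name held 0.0134 to 0.0461% of the normalized counts and rows with a repeated name 0.0897 to 2.17%, the most in rats, and both were left out.

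For each comparison, log2(normalized count + 1) was fitted with limma 3.58.1 (R 4.3.3, trended prior) over genes with a mean of at least 10, with Benjamini-Hochberg adjustment over all of them. Fold changes are on that scale, which understates changes of low genes. Mouse genes were called at p under 0.05, adjusted p under 0.2, mean above 50 and fold above 1.2, rat genes at adjusted p under 0.05. Permutation tests, correlations and figures used Python 3.11.15 with scipy 1.17.1. The fit was checked on simulated data with a single dispersion and with changes planted only in genes of high mean. That check does not cover changes in genes of low mean, such as Epcam, Spp1 and Krt19 in rats. Reads per library were estimated from the step between low values. p-values measure only the spread between libraries. The members and lists were chosen with earlier results of these data known. Besides all 8 members, the text names the gene with the largest fold change past the criteria in each other list and the 3 genes most correlated with each member. Alternatives were the pseudocount, the minimum, TMM scaling, sample and precision weights, flow cell, background and replicate terms, depth and leaving out libraries. miRNA sequences and coordinates are from RefSeq (GRCm38.p6) and the 3′ UTRs from GENCODE on GRCm38.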

Additional observations from a re-analysis of the deposited data

Results flagged for a closer look

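Each group of 4 to 10 libraries was examined for a lowest or highest value that stood far from the rest (Dixon's 95% critical value), in 48 tests over the 8 genes, and 2 values stood out. By chance about 1 in 20 groups is flagged. Krt18 in the WT/Floxed saline library 5 had 12114 normalized counts, against 8272 to 8860 in the other 4 saline libraries, a gap of 0.847 of the group's range (critical value 0.71). Krt8, its partner, was not set apart in that library. Cftr in the LNA29 library 2 of the mice labelled L-Sirt1 KO had 60.4 normalized counts, against 6.39 to 11.8 in the other 3, a gap of 0.901 of the range (critical value 0.829). What sets these libraries apart was not tested.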

How the results depend on the processing

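The count of 0 of 8 genes passing in either LNA29 comparison and in the interaction held under every alternative run. With BT2 none of the 8 passed in any setting either. There only 3 of the 8 were tested in the main fit and hardly any gene passed in any setting, so that this count could hardly have differed. In ZFR against ZLR 2 passed, and 1 passed without a minimum mean (Krt18 at adjusted p = 0.0569), 4 with sample quality weights (Epcam at 0.57 and Spp1 at 2.14 also passed), and 0 without libraries under 5 M reads, where 3 libraries were left. Leaving out 1 library gave 1 to 2, with Krt18 lost without ZFR 1, 2 or 4. Other biliary genes passing in WT/Floxed mice numbered 1, but 0 without a minimum mean, with the flow cell as a covariate, at adjusted p under 0.05 and without the 2 acinar-high libraries, 2 with a term for WT against floxed mice, and 0 to 1 without 1 library. In ZFR they numbered 0, and 0 to 1 without 1 library (1 without ZLR 1). The cause of these shifts was not tested.

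Some small fold changes turned their sign, none of them called. Krt18 in WT/Floxed mice was at 0.011 with sample quality weights and ranged from -0.098 to 0.039 without 1 library, and Cftr was at -0.0078 without the acinar-high libraries and ranged from -0.12 to 0.31. In mice labelled L-Sirt1 KO, Krt19 and Sox9 were at -0.064 and -0.052 with the flow cell as a covariate. Without 1 library there, Krt19 ranged from -0.099 to 0.31, Epcam from -0.30 to 0.11, Sox9 from -0.15 to 0.23, Spp1 from -0.29 to 0.084 and Cftr from -0.14 to 0.88. Krt19 in ZFR was at 0.67 with sample quality weights and 0.65 with precision weights. It ranged from -0.60 to 0.020 in those fits without 1 library that tested it. Without ZLR 3, ZLR 4 or ZFR 4 its mean was under the minimum and it was not tested, so the range leaves these libraries out.

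The replicate numbers did not pair the libraries: same-numbered libraries correlated at -0.28 to 0.24 in their deviations. With the replicate number as a block 0 other biliary genes passed in WT/Floxed mice and 1 of the 8 genes in ZFR (Krt18 at adjusted p = 0.0545). Over all genes the block moved the calls from 688 to 56, 297 to 145 and 367 to 221, and sample quality weights moved them to 1308, 804 and 1169. No minimum mean gave 396, 160 and 241, and adjusted p under 0.05 gave 206 and 37 in mice. The flow cell gave 103 in the L-Sirt1 KO table. Precision weights gave 579 and libraries over 5 M reads 73 in ZFR. Leaving out 1 library gave 381 to 1006, 77 to 426 and 225 to 379. With BT2 all settings gave 0 to 2. Of the further lists, osteopontin receptors passing in ZFR (1) numbered 0 to 3 and Notch and Hippo genes (1) 1 to 3 over all settings. The depth alternative could not be run for BT2, where it left too few libraries. The alternatives without acinar-high, macrophage-high or very shallow libraries, and the block in the interaction, were chosen after seeing the data.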
